A study of Mus musculus with 7 samples.

Results

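The genes described here encode SR proteins, hnRNP proteins and the subunits of SF3A and SF3B, chosen by gene symbol alone: every Srsf, Hnrnp, Sf3a or Sf3b symbol that the platform annotation gives to a probe set as its only gene. The rule found 95 probe sets of 35 genes, out of 28898 probe sets and 17097 genes with 1 symbol each. Levels were measured on Affymetrix mouse arrays in cells sorted from colon adenomas for Epcam, an epithelial surface protein, and for Tomato, a reporter of Mex3a promoter activity. The KO group (3 arrays) carried Mex3a tom/flox and the WT group (4 arrays) carried Mex3a Tom/+. All animals of both groups also carried Villin CreERT2, a tamoxifen-dependent Cre recombinase expressed from a gut epithelial promoter, and APC fl/+, which leaves 1 floxed Apc allele to be recombined. All were given 4 tamoxifen injections followed by 2% DSS, a polymer that injures the colon, in the drinking water over 5 days. Adenomas were taken 2 months later, counted from the end of DSS in the series' design text and from induction in the labels' growth protocol. The labels do not say whether each array came from its own animal, so the tests below measure the spread between these arrays, which may be partly technical.

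MEX3A, the protein encoded by the deleted gene, binds RNA. SR proteins bind exons through RNA recognition motifs and recruit the splicing machinery through domains rich in arginine and serine, which are phosphorylated by the CLK and SRPK kinases. Many hnRNP proteins bind introns and exons to hold splice sites silent, and several also act in mRNA stability, export and translation. SF3A and SF3B are the protein complexes of the U2 snRNP, the particle that recognises the branch point ahead of the 3′ splice site.

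The targeted gene followed the labels. Mex3a read 7.41, 7.38, 7.50 and 7.01 on the log2 scale in WT replicates 1 to 4 and 6.18, 6.29 and 6.07 in KO replicates 1 to 3 (KO minus WT -1.13, SE 0.13, exact permutation p = 0.0286, two-sided, the smallest that 35 arrangements of the arrays allow). When the permutation keeps scan batch, 18 arrangements remain and their smallest p is 0.0556, the value Mex3a reached; that test cannot pass 0.05. The labels place WT replicates 1 and 2 and KO replicate 1 in scan batch 1, and WT replicates 3 and 4 and KO replicates 2 and 3 in scan batch 2. The level of Epcam averaged 11.94 over the WT arrays (SD 0.05, n = 4) and 11.94 over the KO arrays (SD 0.06, n = 3), and the epithelial genes Krt8 (WT 11.76 ± 0.09, KO 11.85 ± 0.05) and Cdh1 (WT 9.83 ± 0.05, KO 9.94 ± 0.03) were also high. The epithelial marker of smallest p, Tspan8, was less even (WT 9.16 ± 0.30, KO 9.78 ± 0.43, difference 0.58, SE 0.21, adjusted p = 0.414 in limma). Of the 15 epithelial markers 7 were positive and 8 negative. Genes below a level of 5.28 were not tested; 15 of 15 epithelial, 14 of 20 leukocyte, 10 of 14 fibroblast and 7 of 11 endothelial markers in the file lay above it. Below it were the leukocyte genes Ptprc (WT 4.07 ± 0.04, KO 4.16 ± 0.09) and Itgam (WT 4.36 ± 0.03, KO 4.36 ± 0.04) and the fibroblast genes Col1a2 (WT 4.79 ± 0.04, KO 4.75 ± 0.02) and Pdgfra (WT 4.66 ± 0.04, KO 4.57 ± 0.07). Well above it were the myeloid gene Lyz2 (WT 12.03 ± 0.31, KO 12.45 ± 0.07) and the matrix gene Fbln1 (WT 10.69 ± 0.28, KO 10.26 ± 0.06). Of the endothelial genes, Pecam1 (WT 6.21 ± 0.05, KO 6.26 ± 0.11) and Kdr (WT 5.28 ± 0.10, KO 5.31 ± 0.13) overlapped between groups, while Cdh5 (WT 6.50 ± 0.16, KO 6.11 ± 0.06) was lower in every KO array (difference -0.41, adjusted p = 0.353 in limma).

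No member passed the test between genotypes. The brightest probe set of a gene was that of highest mean over all 7 arrays, KO included. In the limma fit, which used the brightest probe set of each gene and scan batch as a covariate, 34 members were tested among 12822 genes. Of these, 0 reached a Benjamini-Hochberg adjusted p below 0.05 (smallest 0.414), and over all genes the share was 0% (smallest adjusted p 0.142). At an unadjusted p below 0.05, 4 members were higher in KO, against 7.14% of all genes, and 0 were lower, against 4.26%. The member Srsf12 was left out by the level filter, with its probe set between 3.81 and 3.98 on all arrays.

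The differences were small and mostly positive. KO exceeded WT in 24 of the 34 members (70.6%), compared with 43.9% of all genes, with a median log2 difference of 0.06 for the members and -0.02 for all genes. They ran from -0.12 (Srsf10) to 0.38 (Sf3b6), and the median SD of a member over the WT arrays was 0.12. The hnRNP genes were positive in 13 of 17 (median 0.06), the Srsf genes in 6 of 8 (median 0.09), the Sf3b genes in 4 of 6 (median 0.08) and the Sf3a genes in 1 of 3 (median -0.08). In 0 members did every KO array lie above every WT array (2.68% of all genes), and in 1, Srsf10, every KO array lay below every WT array (3.23% of all genes). In bulk samples such as these, a lower level in each cell cannot be told apart from fewer cells that express the gene.

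**Figure D1:**
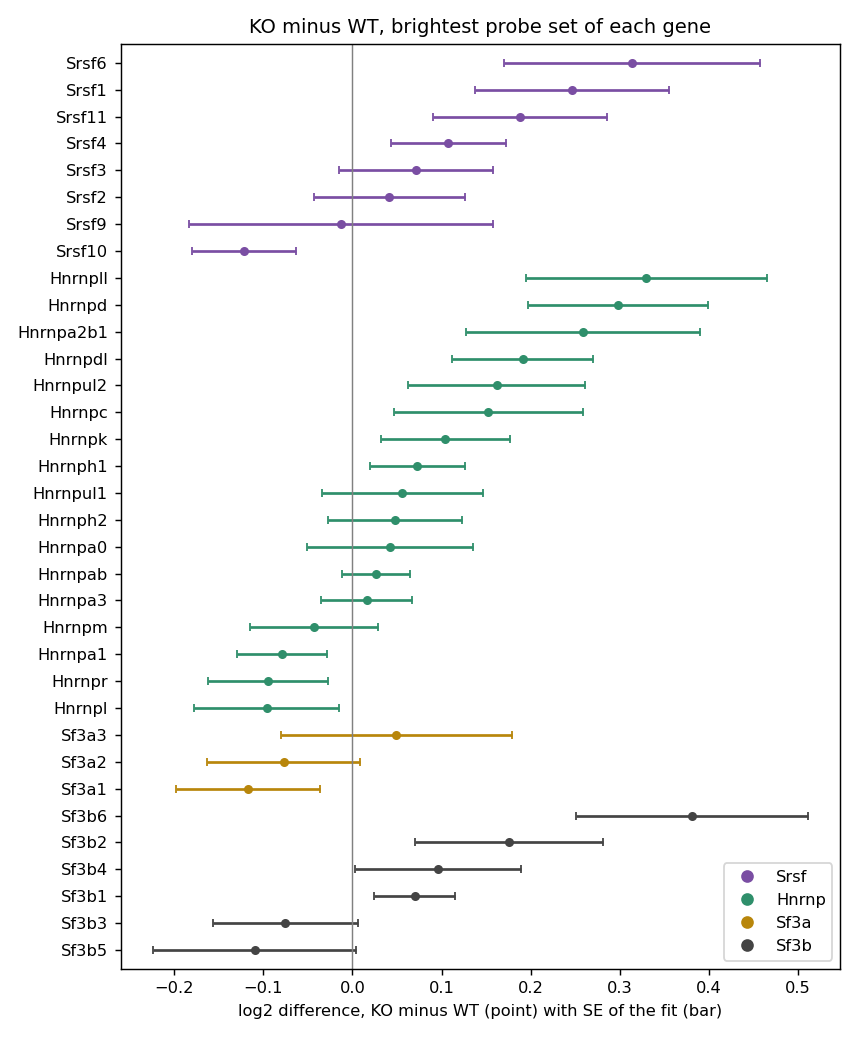
KO minus WT log2 difference (x axis) of each of the 34 tested members (y axis, ordered by difference within the 4 classes, which have a colour each), from the limma fit with scan batch as covariate; bars are ± 1 SE. Most points lie right of 0, from -0.12 in Srsf10 to 0.38 in Sf3b6, and 0 of the 34 passed the adjusted threshold.

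Among the hnRNP genes, the smallest p-values belonged to Hnrnpd, Hnrnpll and Hnrnpdl. Hnrnpd, also known as AUF1, binds AU-rich elements and acts in mRNA decay. Its log2 level was 9.91, 10.04, 9.61 and 9.56 in WT replicates 1 to 4 and 10.03, 10.00 and 10.09 in KO replicates 1 to 3. WT replicates 3 and 4 were the low arrays and WT replicate 2 lay among the KO arrays, so the groups overlapped (difference 0.30, SE 0.10, a 1.23-fold higher level, adjusted p = 0.414 in limma). Hnrnpdl, the closest paralog of Hnrnpd, read 10.72, 10.85, 10.46 and 10.63 in WT and 10.84, 10.79 and 10.87 in KO. Here too WT replicate 2 lay within the KO range (difference 0.19, SE 0.08, adjusted p = 0.434 in limma).

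Hnrnpll, known for the alternative splicing of Ptprc in lymphocytes, was measured at 9.06, 9.31, 8.81 and 8.65 in WT and 9.20, 9.35 and 9.19 in KO. WT replicates 3 and 4 were again lowest, while WT replicate 2 exceeded 2 of the KO arrays (difference 0.33, SE 0.14, adjusted p = 0.429 in limma). Hnrnpa2b1, a regulator of splicing and RNA transport, stood at 10.64, 10.98, 10.46 and 10.44 in WT and 10.74, 10.85 and 11.01 in KO (difference 0.26, SE 0.13, adjusted p = 0.471). For Hnrnpul2, a nuclear protein with roles in RNA processing and DNA repair, the WT arrays gave 9.77, 9.89, 9.55 and 9.54 and the KO arrays 9.77, 9.79 and 9.92 (difference 0.16, SE 0.10, adjusted p = 0.541). In each of these genes WT replicate 2 lay within the KO range. The other 12 hnRNP genes had differences between -0.10 and 0.15.

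Of the SR proteins, Srsf1 is the founding member and a known proto-oncogene. Srsf1 levels were 9.13, 9.40, 8.96 and 9.08 in WT and 9.32, 9.37 and 9.43 in KO. The groups overlapped only through WT replicate 2 (difference 0.25, SE 0.11, adjusted p = 0.438 in limma, exact permutation p = 0.114, or 0.167 within scan batch). These values belong to the brightest Srsf1 probe set, 1434972_PM_x_at. Of the others, 1428099_PM_a_at differed by 0.43 (SE 0.16), 1428100_PM_at by 0.18 (SE 0.10) and 1452430_PM_s_at by 0.06 (SE 0.30). In 1452430_PM_s_at, KO replicate 1 was the lowest of all arrays, at 7.29. Srsf6, which binds exonic enhancers, read 9.43, 9.76, 9.03 and 9.27 in WT and 9.58, 9.71 and 9.67 in KO, with WT replicate 2 the highest of all 7 arrays (difference 0.31, SE 0.14, adjusted p = 0.447). The size depended on the probe set. Srsf6 probe set 1448454_PM_at differed by 0.04 (SE 0.08). Its WT mean was above that of the brightest (9.47 against 9.37) and its KO mean below (9.51 against 9.65). The brightest was picked by the mean over all 7 arrays, so the difference of 0.31 belongs to a probe set picked partly through its KO level. Probe sets 1416721_PM_s_at and 1416720_PM_at differed by 0.29 (SE 0.12) and 0.22 (SE 0.15). Srsf11 (10.18, 10.19, 9.85 and 9.94 in WT; 10.13, 10.30 and 10.18 in KO) and Srsf4 (10.26, 10.32, 10.14 and 10.13 in WT; 10.32, 10.33 and 10.26 in KO) differed by 0.19 (SE 0.10) and 0.11 (SE 0.06).

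Srsf10 went the other way. Its product is an SR protein that represses splicing when dephosphorylated, as in heat shock. WT replicates 1 to 4 read 11.04, 11.02, 10.96 and 10.92, and KO replicates 1 to 3 read 10.80, 10.87 and 10.92. WT replicate 4 and KO replicate 3 agreed to 2 decimals, so the separation of the groups is narrow (difference -0.12, SE 0.06, adjusted p = 0.463 in limma, exact permutation p = 0.0571, or 0.0556 within scan batch). This value belongs to the brightest of 4 Srsf10 probe sets, and the others were positive or near 0, as described further on. Srsf3, an SR protein that also acts in mRNA export, had a small difference in its brightest probe set (10.58, 10.76, 10.54 and 10.55 in WT; 10.55, 10.69 and 10.80 in KO; difference 0.07, SE 0.09).

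In SF3B, the subunit that touches the branch point adenosine is encoded by Sf3b6. Its levels were 8.21, 8.67, 8.06 and 8.13 in WT and 8.63, 8.59 and 8.62 in KO. The KO arrays lay close together, while the WT arrays were spread with WT replicate 2 the highest of all 7 (difference 0.38, SE 0.13, a 1.30-fold higher level, adjusted p = 0.414 in limma). Sf3b2, a subunit that contacts the pre-mRNA near the branch point, read 9.51, 9.68, 9.41 and 9.39 in WT and 9.53, 9.68 and 9.79 in KO (difference 0.18, SE 0.11, adjusted p = 0.533). In SF3A, Sf3a1 gave 7.85, 7.80, 7.93 and 7.81 in WT and 7.69, 7.73 and 7.81 in KO (difference -0.12, SE 0.08, adjusted p = 0.569). Sf3a2 gave 6.92, 6.80, 7.10 and 7.01 in WT and 6.93, 6.93 and 6.84 in KO (difference -0.08, SE 0.09). Both groups overlapped in each of these 3 genes. Sf3b1, the largest SF3B subunit and the one most often mutated in human cancers, differed by 0.07 (SE 0.05).

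Promoter sequences are shown for 5 of these members, to let the common and the differing letters be read beside the levels. Each line is the 150 bases before the start site, 5′ to 3′ on the gene's own strand, from RefSeq's annotation of GRCm38.p6, with capitals for the GC box (GGGCGG, or CCGCCC on the other strand), the CCAAT box (CCAAT or ATTGG) and the E box (CACGTG, the same on both strands). They lie at chr5:99978939-99979088 (minus strand) for Hnrnpd, chr12:4817458-4817607 (plus) for Sf3b6, chr11:88047223-88047372 (plus) for Srsf1, chr2:162931358-162931507 (plus) for Srsf6 and chr4:135855921-135856070 (plus) for Srsf10.
Hnrnpd: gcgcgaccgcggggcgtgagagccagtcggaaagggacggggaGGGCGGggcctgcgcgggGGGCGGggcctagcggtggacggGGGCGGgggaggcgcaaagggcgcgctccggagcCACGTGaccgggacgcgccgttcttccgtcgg
Sf3b6: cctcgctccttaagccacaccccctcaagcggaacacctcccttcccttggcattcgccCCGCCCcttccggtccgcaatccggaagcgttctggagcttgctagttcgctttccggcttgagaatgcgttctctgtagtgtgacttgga
Srsf1: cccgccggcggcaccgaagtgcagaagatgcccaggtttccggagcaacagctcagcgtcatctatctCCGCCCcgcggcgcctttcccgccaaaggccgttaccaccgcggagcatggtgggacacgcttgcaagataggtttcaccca
Srsf6: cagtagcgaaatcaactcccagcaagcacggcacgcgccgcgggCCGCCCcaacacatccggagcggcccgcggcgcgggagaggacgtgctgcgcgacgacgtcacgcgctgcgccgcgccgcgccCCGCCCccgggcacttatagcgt
Srsf10: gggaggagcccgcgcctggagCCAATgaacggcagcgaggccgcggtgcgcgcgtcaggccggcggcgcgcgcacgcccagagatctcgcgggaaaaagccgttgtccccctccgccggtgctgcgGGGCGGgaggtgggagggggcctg
All 5 hold at least 1 GC box in these letters, the lower-reading Srsf10 included, whereas the CCAAT box appears only in Srsf10 and the E box only in Hnrnpd. In the longer windows of 300 bases, Srsf1 holds 1 CCAAT box as well. Over windows of 300 bases, from 250 before to 50 after the start, 31 members matched with 41 windows, some of which overlap within a gene. The GC box was in 31 of the 41 (75.6%) against 35.7% of all 32851 windows, the CCAAT box in 22 (53.7%) against 37.4%, and the E box in 4 (9.76%) against 7.15%. The windows held a median of 27 CpG dinucleotides, against 7 over all windows. These are counts of letters, and binding was not measured.

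The positive differences were found mainly in scan batch 2. Within scan batch 1 (2 WT, 1 KO), KO exceeded WT in 15 of 34 members (44.1%, against 43.8% of all genes), with a median of -0.04. Within scan batch 2 (2 WT, 2 KO), it did so in 24 of 34 (70.6%, against 46.7% of all genes), with a median of 0.13. In both batches 12 of 34 members were positive, against 2615 of all 12822 genes. The medians of all genes were -0.02 in either batch. By class, the median in scan batch 2 was 0.24 for Srsf, 0.09 for Hnrnp, 0.12 for Sf3b and -0.11 for Sf3a; in scan batch 1 it was -0.04, -0.03, -0.03 and -0.14. Some other gene lists moved the same way between the batches. Epithelial markers went from 4 to 12 of 15 positive (median -0.10 to 0.08). Genes that act with U2 at the 3′ splice site went from 2 to 10 of 13 (-0.05 to 0.21), and replication and mitosis genes from 6 to 20 of 32 (-0.11 to 0.06). Core snRNP proteins rose from 9 to 18 of 25 (-0.05 to 0.07), and tri-snRNP proteins and spliceosomal helicases from 12 to 23 of 37 (-0.04 to 0.14). SR-related proteins outside the Srsf family rose from 8 to 15 of 25 (-0.06 to 0.04), and other RNA-binding splicing regulators from 22 to 28 of 47 (-0.01 to 0.05). Leukocyte markers went the other way, from 7 to 5 of 14 (-0.001 to -0.065). Endothelial markers stayed at 2 of 7 and fibroblast markers at 3 of 10. The kinases, phosphatase subunits and import receptors of SR proteins went from 5 to 6 of 14. The split therefore also marks some lists outside the members and not others, and the part of these lists in the members' result was not tested.

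**Figure D2:**
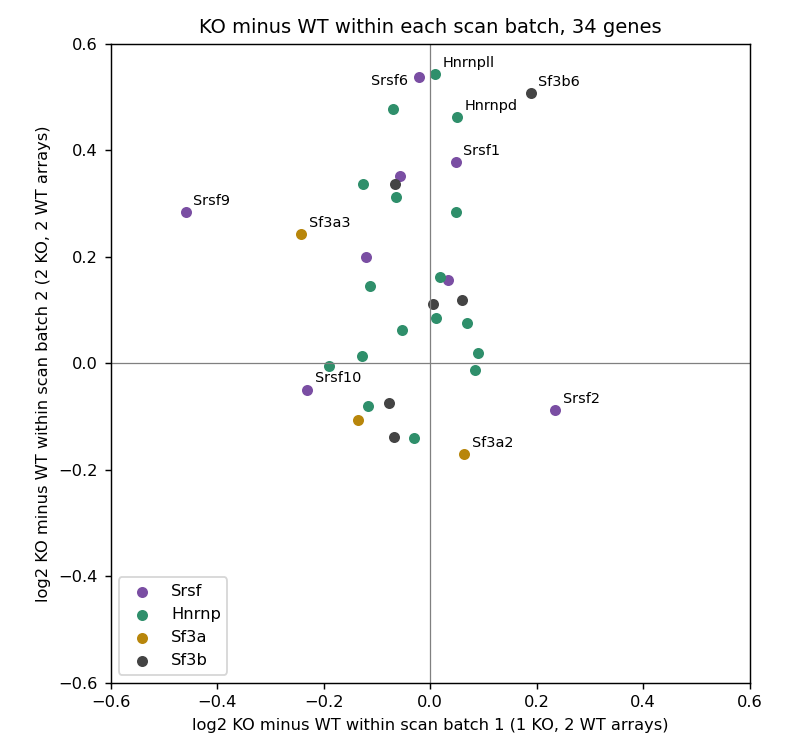
KO minus WT log2 difference of each of the 34 tested members within scan batch 1 (x axis; 2 WT arrays and 1 KO array) and within scan batch 2 (y axis; 2 WT and 2 KO arrays), 1 point per gene, coloured by class. Many members, among them Srsf6 and Hnrnpll, lie near 0 on the x axis and well above 0 on the y axis, while Srsf10 lies below 0 on both.

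WT replicates 3 and 4 were the low arrays. In 17 of the 34 members both were below all of the other 5 arrays, which held for 15.7% of all genes. Both KO arrays of scan batch 2 exceeded both of its WT arrays in 21 members (61.8%), against 28.1% of all genes. From scan batch 1 to scan batch 2, the WT level was lower in 25 of 34 members (73.5%, against 51.7% of all genes), with a median change of -0.12, whereas the median change in KO was 0.07. KO replicate 1 lay between WT replicates 1 and 2 in 15 members (44.1%), against 41.2% of all genes. A genotype by scan batch term, added to the fit after the data were seen, had an unadjusted p below 0.05 in 11 of the 34 (32.4%), against 12.6% of all genes. After Benjamini-Hochberg adjustment in limma it was called in 0 members (smallest adjusted p 0.344) and in 1 of all 12822 genes, with the smallest unadjusted p, 0.0150, in Hnrnpc, an hnRNP that binds uridine tracts.

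Several single genes showed the same split. The difference in the brightest Srsf6 probe set was -0.02 within scan batch 1 and 0.54 within scan batch 2, and in Hnrnpll 0.01 and 0.54. In Srsf6 probe set 1448454_PM_at it was -0.03 and 0.08. Hnrnpd gave 0.05 and 0.46, Hnrnpa2b1 -0.07 and 0.48, and Srsf1 0.05 and 0.38. Sf3b6 differed by 0.19 in scan batch 1, against 0.51 in scan batch 2. The brightest probe set of Srsf2, the member with the largest positive difference in scan batch 1, ran against the split, at 0.24 and -0.09. The other Srsf2 probe sets were divided. Probe set 1427504_PM_s_at followed the split at -0.07 and 0.37, as did 1415807_PM_s_at at -0.09 and 0.09. Probe sets 1427815_PM_at (-0.06 and -0.09) and 1427816_PM_at (0.07 and -0.07) did not. Srsf10 was negative in both, at -0.23 and -0.05, as was Sf3a1, at -0.14 and -0.11.

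**Figure D3:**
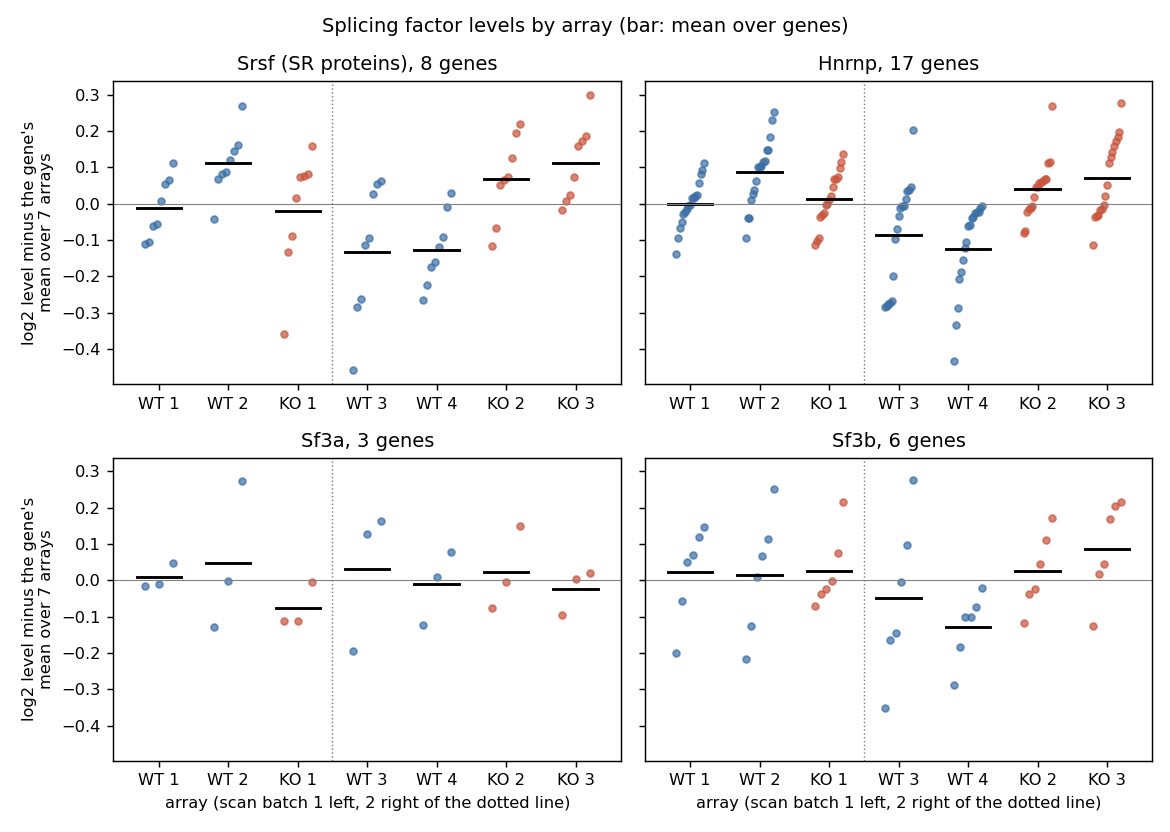
Log2 level of each tested member minus that gene's mean over the 7 arrays (y axis) in each array (x axis; WT in blue, KO in red, scan batch 1 left and 2 right of the dotted line), in 1 panel per class, 1 point per gene, with the mean over the genes as a bar. The Srsf mean is lowest in WT 3 (-0.134) and WT 4 (-0.127) and near its highest in WT 2 (0.112), and the Hnrnp panel has the same low arrays.

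Averaged over the 34 members, the deviation from each gene's own mean was 0.002, 0.077, -0.080 and -0.116 in WT replicates 1 to 4 and -0.001, 0.043 and 0.075 in KO replicates 1 to 3. The 4 WT arrays thus spanned more than the KO arrays did, with WT replicate 2 level with the highest KO array. The Srsf genes gave -0.134 and -0.127 in WT replicates 3 and 4 and 0.112 in WT replicate 2. For the hnRNP genes these 3 arrays gave -0.087, -0.125 and 0.086. The log2 difference between the Gapdh 3′ and 5′ control probe sets, a measure of RNA or amplification quality, came to -0.131, -0.209, -0.121 and -0.121 in WT and to -0.154, -0.213 and -0.239 in KO. It was lowest in WT replicate 2 and KO replicates 2 and 3, the arrays in which the members read high. The same measure from Actb did not line up with the members, at -0.485, -0.429, -0.497 and -0.448 in WT and -0.301, -0.515 and -0.446 in KO, where KO replicate 1 stood apart. The part of the Gapdh measure in the result was not tested beyond a fit with it as a covariate, which left 2 members, in place of 4, at an unadjusted p below 0.05, and 7.86% of all genes, in place of 11.4%. The mean deviation of 10 fibroblast markers was 0.39 for WT replicate 3 and 0.37 for KO replicate 2, arrays that lie on opposite sides for the members. Over 15 epithelial markers it was -0.18 for KO replicate 1, -0.17 for WT replicate 4 and 0.27 for KO replicate 2. The 14 leukocyte markers lay between -0.12 and 0.08 and the 7 endothelial markers between -0.06 and 0.07. The part of these cell types in the result was not tested.

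Several members were measured by more than 1 probe set, which read different stretches of the transcripts. Among all 95 probe sets, fitted with no level filter, KO exceeded WT in 75 (78.9%, against 43.0% of all probe sets), with a median of 0.07 against -0.02. At an unadjusted p below 0.05, 20 were higher in KO (6.32% of all probe sets) and 1 was lower (3.92%), while 0 passed adjustment in limma (smallest adjusted p 0.347). Every KO array was above every WT array in 4 (2.40% of all probe sets) and below in 3 (2.87%). Probe sets of 1 gene share its transcripts and are not independent, and 20 of the 95 have names ending in _s_at or _x_at, which mark probes that match several transcripts.

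**Figure D4:**
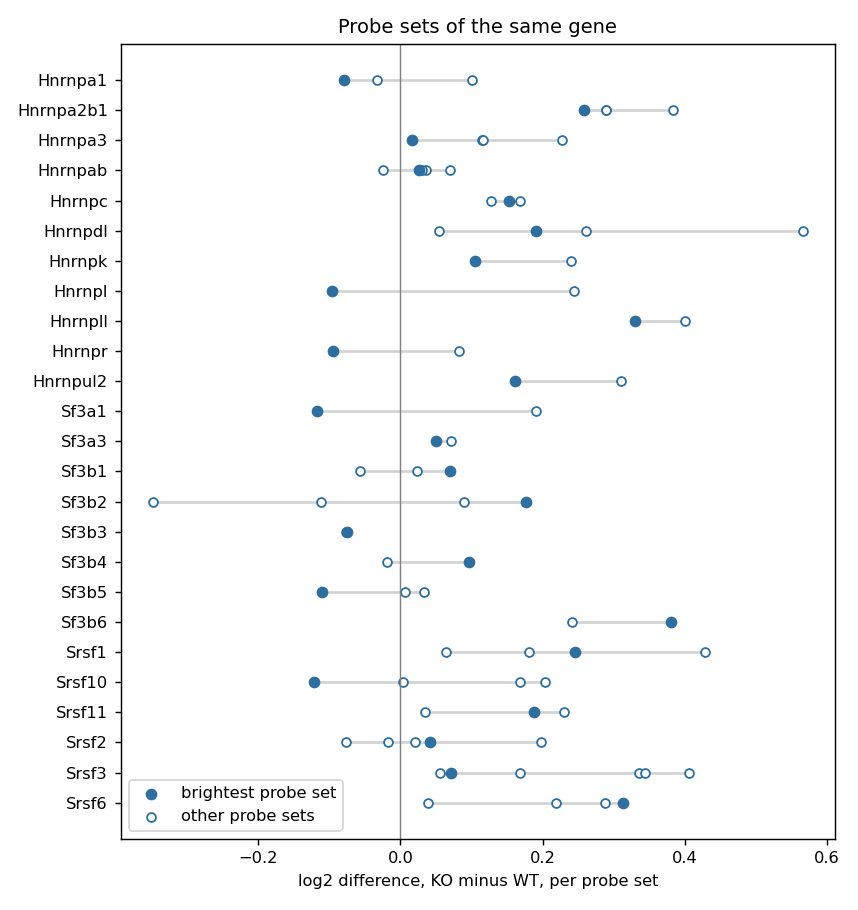
KO minus WT log2 difference (x axis) of each probe set above the 25% quantile of level, for the 25 members with at least 2 such probe sets (y axis), from the fit over all probe sets; filled points are the brightest probe set of a gene, open points its others, and the grey line joins them. Srsf10, Sf3b2 and Sf3a1 have probe sets on both sides of 0, whereas those of Srsf3 and Hnrnpdl all lie to the right of it.

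In 25 members at least 2 probe sets lay above the 25% quantile of probe set level. All probe sets of the gene had the same sign in 14 of them, 13 positive and 1 negative (Sf3b3, an SF3B subunit), against 51.0% of all such genes. Set against the brightest probe set of its gene, a further probe set had the same sign in 38 of 54 pairs (70.4%), against 60.4% of all pairs. A direct test of each pair, the within-array difference of the 2 probe sets compared between genotypes, gave 8 of 54 at an unadjusted p below 0.05 (14.8%), close to the 15.4% of all pairs. In limma 0 pairs passed adjustment (smallest adjusted p 0.219). Pairs of 1 gene share its brightest probe set.

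Srsf10 had the pair with the smallest p. The within-array difference of probe set 1423982_PM_at from the brightest, 1418527_PM_a_at, ran -3.91, -3.78, -3.97 and -3.89 over the WT arrays and -3.57, -3.61 and -3.55 over the KO arrays. Every KO array lay above every WT array (shift 0.33, SE 0.09, adjusted p = 0.219 in limma), and the shift was 0.28 within scan batch 1 and 0.36 within scan batch 2. On its own, 1423982_PM_at differed by 0.20 (SE 0.09) and a further Srsf10 probe set, 1449121_PM_at, by 0.17 (SE 0.17), against -0.12 for the brightest. The remaining one, 1418526_PM_at, stood near 0 (SE 0.09).

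Sf3b2 showed the opposite arrangement. Probe set 1456352_PM_a_at read 9.17, 8.81, 9.35 and 8.88 in WT and 8.68, 8.77 and 8.70 in KO, with every KO array below every WT array (difference -0.35, SE 0.14, adjusted p = 0.471 in limma). The same held for 1456040_PM_at, by a smaller margin (difference -0.11, SE 0.08), while the brightest probe set differed by 0.18. Relative to the brightest, these 2 probe sets shifted by -0.52 (SE 0.18) and -0.29 (SE 0.12). The dimmest, 1459836_PM_x_at, had the sign of the brightest (difference 0.09, SE 0.07) and shifted by -0.09 (SE 0.10). In Sf3a1, probe set 1419087_PM_s_at was higher in every KO array (6.38, 6.67, 6.67 and 6.57 in WT; 6.74, 6.86 and 6.72 in KO; difference 0.19, SE 0.10), while the brightest differed by -0.12. The direction reported for Srsf10, Sf3b2 and Sf3a1 therefore depends on which probe set is read.

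Hnrnpdl and Srsf3 differed between probe sets in size but not in sign. Hnrnpdl 1456698_PM_s_at had the smallest p of all member probe sets, at 8.71, 8.46, 8.22 and 8.05 in WT and 9.06, 8.79 and 8.74 in KO. The groups did not overlap; WT replicate 1 came closest to the KO arrays (difference 0.57, SE 0.10, adjusted p = 0.347 in limma), and the difference was 0.47 within scan batch 1 and 0.63 within scan batch 2. Of the 6 Srsf3 probe sets, 3 had an unadjusted p below 0.05, with differences of 0.34, 0.34 and 0.41, while the brightest stood at 0.07. Hnrnpk, an hnRNP that binds C-rich stretches, was chosen here after its values were seen: its probe set 1423684_PM_at read 10.23, 10.37, 10.13 and 10.16 in WT and 10.44, 10.43 and 10.48 in KO, without overlap (difference 0.24, SE 0.07, adjusted p = 0.426).

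The partners of these factors in the spliceosome gave differences in both directions, and 0 of them passed adjustment in limma. For the counts here and in the next paragraph, the shares over all genes were 43.9% positive (median -0.02) and 0% past adjustment. At an unadjusted p below 0.05 in limma, 7.14% of all genes were higher and 4.26% lower. Of 13 tested genes that act with U2 at the 3′ splice site, 9 were positive (median 0.03), with 4 higher and 0 lower at an unadjusted p below 0.05. Among them, Htatsf1, which binds SF3B1, differed by 0.50 (SE 0.17) and the SR-binding cochaperone Dnajc8 by 0.42 (SE 0.15). Core snRNP proteins were positive in 16 of 25 (median 0.02; 3 higher and 1 lower at that p), with 0.29 in Lsm8 and -0.49 in Snrpn. Tri-snRNP proteins and spliceosomal helicases were positive in 22 of 37 (median 0.03; 4 higher and 3 lower), led by the RNA helicase Dhx9 at 0.50 (SE 0.13) and the kinase Prpf4b at 0.26 (SE 0.08).

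SR-related proteins outside the Srsf family were positive in 14 of 25 (median 0.02; 2 higher and 1 lower), with 0.23 in Son, a nuclear speckle scaffold, and -0.17 in Bclaf1. The kinases, phosphatase subunits and import receptors of SR proteins were positive in 5 of 14 (median -0.08; 0 higher and 0 lower), with Clk4 at 0.20 (SE 0.09) and Srpk3 at -0.27 (SE 0.13). Other RNA-binding splicing regulators, without the member Hnrnpdl, were positive in 27 of 47 (median 0.03; 3 higher and 1 lower), with Ewsr1 at 0.48 (SE 0.15) and Tardbp, which encodes TDP-43, at 0.30 (SE 0.11). Genes of DNA replication and mitosis, given for comparison, were positive in 13 of 32 (median -0.03; 1 higher and 0 lower), with Mcm4 at 0.32 and Rrm1 at -0.21. WT replicates 3 and 4 were the lowest arrays for Dhx9, Htatsf1 and Ewsr1 as well: Dhx9 read 9.20, 9.23, 8.72 and 8.64 in WT and 9.34, 9.43 and 9.45 in KO.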

How the data were processed

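Each array has 1 column of log2 values, which the authors deposited after RMA (background correction, joint normalization and summary of probes), per the submitters' processing notes. No RMA version was found in the labels. RMA normalizes arrays together, so a shift common to all genes would not be seen. Of 45141 probe sets, 28898 have 1 symbol in the platform annotation; 4 probe sets that list a member beside other symbols were not used. All 95 member probe sets matched RefSeq.

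KO was compared with WT in limma 3.58.1 (R 4.3.3), two-sided, with scan batch as a covariate and Benjamini-Hochberg adjustment over all features at 0.05, for the brightest probe set per gene (lowest 25% of genes by mean level left out; eBayes with a trend), for all probe sets, and for differences between probe sets of 1 gene (both above the 25% quantile, which is 5.06; no trend). Printed differences come from these fits, means and SDs from the values. The fits were tested on simulated data. Alternatives covered the probe set chosen, level filter, scaling, batch, array quality and each array left out; the genotype by batch term was added after the data were seen. The number of arrays limits the precision.

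Named were Mex3a, the 12 members of smallest p, 2 per class, the genes of the 6 pairs of smallest p, 2 genes per partner list and at least 3 markers per cell type. Outside this rule, Hnrnpc, Sf3b1, Sf3b3, Srsf2, Srsf12 and Hnrnpk were picked once their values were known. The members and lists were chosen with earlier results of these data known.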

Additional observations from a re-analysis of the deposited data

Results flagged for a closer look

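Among 151 sets of 4 WT values of member probe sets and their within-gene differences, 8 held an array whose gap to the nearest of the others was a large share of the set's range, above the Dixon limit; chance marks about 1 in 20 such sets. Levels so marked were Hnrnpd 1458273_PM_at at 3.96 in WT replicate 4 (others 4.10), Hnrnpl 1445594_PM_at at 7.47 in WT replicate 2 (others 6.76 to 6.87), Sf3b1 1418561_PM_at at 5.16 in WT replicate 3 (others 5.19) and Srsf1 1428100_PM_at at 5.36 in WT replicate 2 (others 4.93 to 5.00). Differences from the brightest probe set so marked were Sf3b2 1456040_PM_at at -1.02 in WT replicate 2 (others -0.75 to -0.70), Srsf1 1452430_PM_s_at at -1.01 in WT replicate 2 (others -1.23 to -1.20), Srsf10 1418526_PM_at at -4.77 in WT replicate 1 (others -5.04 to -5.02) and Srsf2 1415807_PM_s_at at -1.48 in WT replicate 2 (others -1.68 to -1.65).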

How the results depend on the processing

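The count of members at an unadjusted p below 0.05 (4 of 34) is a share of 11.8%, beside 11.4% of all genes in either direction. It became 9 with the probe set of largest variance (26.5%, all genes 12.8%), 1 without scan batch in the fit (2.94%, all genes 7.18%), 13 in scan batch 2 only (38.2%, all genes 24.4%), 17 with array weights (all genes 31.8%) and 2 with the Gapdh covariate (5.88%, all genes 7.86%). In scan batch 1 only it was 1 (all genes 3.40%), but that fit has 1 KO array and 1 residual degree of freedom per gene and is not comparable with the others. It ranged from 0 to 11 as each array was left out: 0 without WT replicate 3, WT replicate 4, KO replicate 2 or KO replicate 3, 2 without WT replicate 1, 11 without KO replicate 1 and 9 when WT replicate 2 was dropped; the share of all genes ranged from 5.57% to 19.7%. With array weights, which weighted KO replicate 1 at 0.297 and KO replicate 2 at 3.04, 9 members and 1370 of all genes passed adjustment; with each array left out, 0 to 2 of all genes did. In scan batch 1 only, the members' median was -0.042 and 15 were positive. Member probe sets at an unadjusted p below 0.05 numbered 21 in either direction (22.1%, all probe sets 10.2%). They became 7 without scan batch (7.37%, all probe sets 6.33%) and 46 with array weights (48.4%, all probe sets 25.1%). With array weights 10 member probe sets passed adjustment. The matching count over all probe sets was not taken, so these 10 cannot be set against a background. With an array left out the lowest count at an unadjusted p below 0.05 was 4 without KO replicate 3 (4.21%, all probe sets 5.42%). The highest was 40 without KO replicate 1 (42.1%, all probe sets 17.6%). Member pairs (8, or 14.8%, all pairs 15.4%) became 5 without scan batch (9.26%, all pairs 10.8%). They became 14 with array weights (25.9%, all pairs 28.6%), where 3 member pairs and 654 of all pairs passed adjustment. Without _x_at and _s_at probe sets the count was 5 (14.3%, all pairs 15.2%). With an array left out the lowest was 3 (5.56%), without WT replicate 3, KO replicate 2 or KO replicate 3 (all pairs 8.42%, 8.99% and 8.86%). The highest was 12 (22.2%, all pairs 23.8%), without WT replicate 2. With an array left out, 0 to 2 of all pairs passed adjustment. The cause of these shifts was not tested.

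Of 285 values for 15 named members under 19 alternatives, 262 kept their sign and side of the threshold, 8 passed it (all under array weights) and 15 changed sign; 6 members never changed sign. With the probe set of largest variance, Srsf10 was 0.17, Sf3b2 -0.35 and Sf3a1 0.19; averaging a gene's probe sets gave Srsf10 0.064, Sf3b2 -0.049 and Sf3a1 0.027. In scan batch 1 only, Srsf6 was -0.021, Hnrnpa2b1 -0.069, Srsf11 -0.057, Sf3b2 -0.066, Hnrnpul2 -0.064, Sf3a2 0.064, Srsf3 -0.12, Mcm4 -0.018, Clk4 -0.011, Srpk3 0.022 and Htatsf1 -0.000844. With the Gapdh covariate, Sf3a2 was 0.028 and Srsf3 -0.073. No paired analysis was possible because the labels match no WT array to a KO array beyond the shared scan batch. The replicate numbers used here follow accession order and only name the arrays.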
